A study of Papio anubis with 25 samples.

Results

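The submandibular and the sublingual gland of the olive baboon were compared in 9 of the 25 libraries of the series. The submandibular side held 4 libraries chosen by their measured BPIFA2 level, at least 2000 TPM (a length-corrected transcript abundance relative to the rest of the library), and called gland-rich here, from baboons 1, 3, 4 and 5. The sublingual side held all 5 libraries with that label, from baboons 1 to 5, so 4 animals gave both glands. Only 1 of the 5 submandibular libraries, that of baboon 2, fell below the minimum. The study took flash-frozen liver, pancreas and the parotid, submandibular and sublingual glands from 5 animals, with amylase expression in salivary and digestive tissue as its stated subject, and made 1 library of each tissue. Baboons 1 to 4 were labelled female and baboon 5 male. The labels named no treatment, age or genotype, and RNA came from a few thin sections of each tissue, with no account of which part of the gland a section held.

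Saliva is made by several pairs of major glands whose secretory end pieces are serous, mucous or mixed. Serous cells release watery saliva rich in enzymes, proline-rich proteins and BPI-fold proteins, and mucous cells release gel-forming and small mucins. In primates the submandibular gland is mixed with a serous majority, and the sublingual gland, which lies under the mucosa of the floor of the mouth close to the muscles there, is mostly mucous.

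The gland-rich submandibular libraries were dominated by a few loci, among them genes of secreted proteins, that were far lower in all 5 sublingual libraries. BPIFA2, a BPI-fold protein of saliva, had 46591, 35896, 36518 and 28937 TPM in the submandibular libraries of baboons 1, 3, 4 and 5. The library left out, of baboon 2, had 1044 TPM. The sublingual libraries of baboons 1 to 5 had 1021, 870, 643, 1598 and 1442 TPM. All 4 gland-rich values therefore lay far above all 5 sublingual values, and since BPIFA2 chose the libraries this gap is a description only. The 10 pancreas and liver libraries, which serve as a background because neither organ is known to make this protein, ranged from 562 to 1414 TPM, so 3 sublingual values lay inside that range and baboons 4 and 5 just above it.

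**Figure D1:**
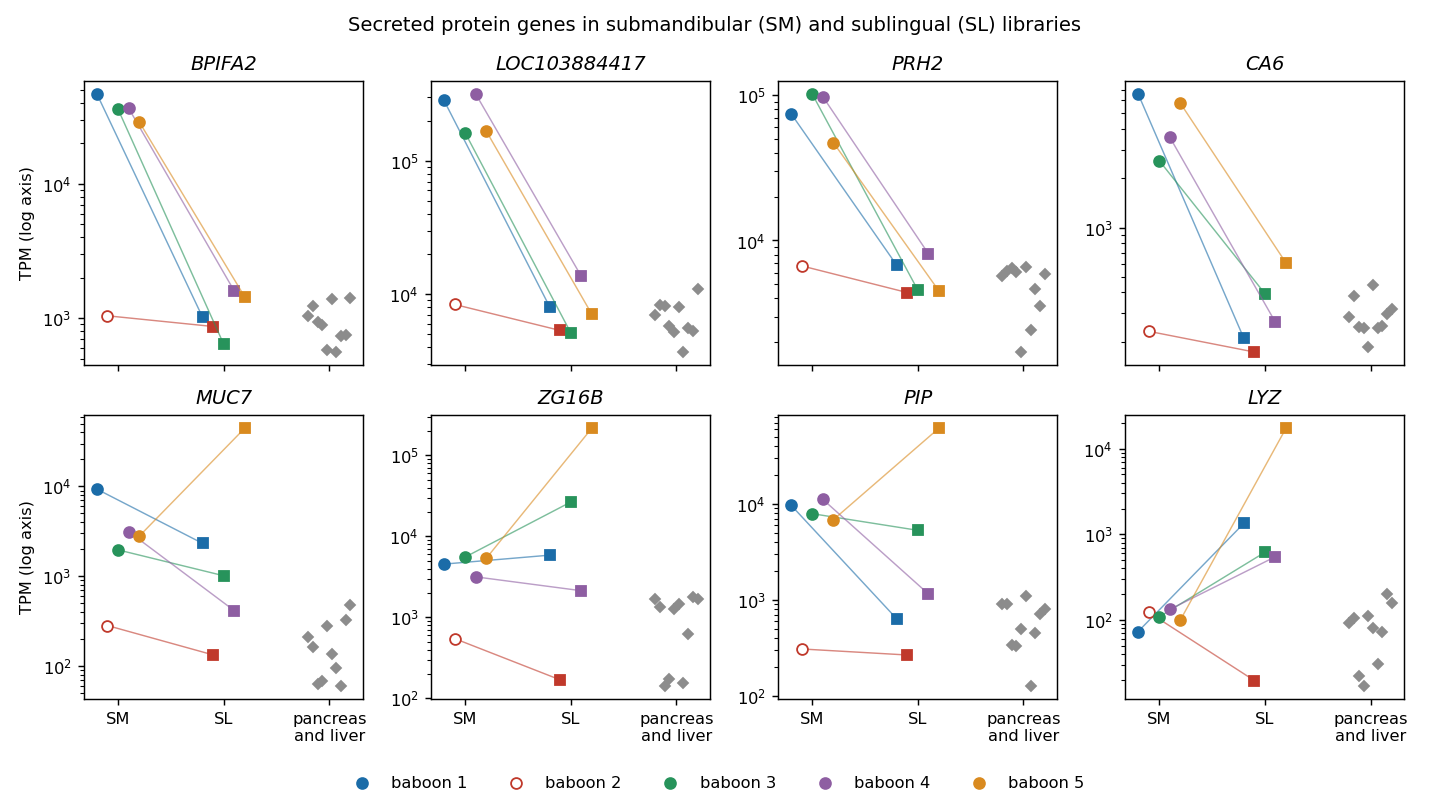
TPM on a log axis of 8 genes, the unnamed locus LOC103884417 and otherwise genes of secreted proteins, in the submandibular (SM, circles) and sublingual (SL, squares) libraries. Points are coloured by baboon and joined within each animal, with the 10 pancreas and liver libraries as grey diamonds. The open circle is the submandibular library of baboon 2, below the BPIFA2 minimum. In the upper row every filled circle lies above every square, and in the lower row the sublingual library of baboon 5 is the highest of all.

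The 4 most abundant loci without a gene name stood apart in the same way. LOC103884417, which lies between CSN2 (beta-casein) and HTN1 (histatin 1) in the RefSeq gene table, had 283861, 162391, 317371 and 167128 TPM in the 4 gland-rich libraries. It had 8068, 5357, 5149, 13641 and 7084 TPM in the sublingual libraries and 3693 to 11018 TPM in pancreas and liver. LOC101011282, the neighbour of OPRPN, had 53957 to 115883 TPM against 1201 to 3282 TPM. LOC103881672, between TAS2R42 and ETV6, had 115097 to 192071 TPM against 7238 to 17500 TPM. LOC101021528, next to the cystatin gene CST9, had 78489 to 155289 TPM against 1601 to 3830 TPM in the sublingual libraries of baboons 1 to 4 and 18488 TPM in that of baboon 5. The 2 groups overlapped at none of these loci, which is a description only, since BPIFA2 chose the libraries. The submandibular library of baboon 2, left out by that choice, had 8395 TPM at LOC103884417, 12378 TPM at LOC103881672 and 1662 TPM at LOC101021528, inside the sublingual range. At LOC101011282 it had 3596 TPM, just above that range. Genes of the proline-rich, histatin-like and cystatin families have near-identical copies, among which the quantification may have split reads, so the value of a single copy is uncertain.

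PRH2, an acidic proline-rich salivary protein, had 74459, 101730, 97565 and 47134 TPM in the gland-rich libraries and 4385 to 8116 TPM in the sublingual ones. CA6, the secreted carbonic anhydrase of saliva, had 6577, 2566, 3571 and 5765 TPM. Its sublingual values were 210, 173, 394, 263 and 606 TPM, and pancreas and liver had 186 to 444 TPM. Lower down the scale, PRR27, a proline-rich gene of the same gene cluster as the histatins, had 141 to 512 TPM against 8.84 to 28.5 TPM. OPRPN, the precursor of the peptide opiorphin, had 17.1 to 230 TPM against 3.86 to 11.1 TPM, its highest sublingual value being that of baboon 5. None of these 4 genes overlapped between the groups either, but that depends on the choice of libraries by BPIFA2. The left-out submandibular library of baboon 2 had 6692 TPM of PRH2, 231 TPM of CA6, 12.6 TPM of PRR27 and 5.37 TPM of OPRPN. Each of those values lay inside the sublingual range.

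On the log2(TPM + 1) scale, the gland-rich mean exceeded the sublingual mean by 5.11 for BPIFA2, 5.03 for LOC101011282, 4.92 for LOC103884417, 4.86 for LOC101021528, 4.34 for PRR27, 3.86 for CA6, 3.81 for PRH2, 3.75 for LOC103881672 and 3.58 for OPRPN. Within the 4 animals that gave both glands, the mean difference was 5.04 ± 0.73 (SD) for BPIFA2, 4.80 ± 0.30 for LOC103884417, 3.73 ± 0.51 for PRH2 and 3.67 ± 0.97 for CA6, with the submandibular library higher in 4 of 4 animals each time. The narrowest within-animal gap of LOC101021528, PRR27 and BPIFA2 was that of baboon 5, at 2.55, 2.27 and 4.33. Of the 5 sublingual values, 3 for BPIFA2, PRH2 and CA6 and 4 for LOC103884417 and LOC101011282 lay within the range of pancreas and liver, so these differences set the submandibular level against a background and measure no sublingual level. Fewer serous cells and less RNA of these genes per cell cannot be told apart in bulk tissue.

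These loci also set the scale of everything else. The 4 unnamed loci, PRH2 and BPIFA2 together took 79.6%, 71.0%, 80.2% and 52.0% of all TPM in the gland-rich libraries of baboons 1, 3, 4 and 5. They took 2.22% to 5.16% in the sublingual libraries and 3.38% in the submandibular library of baboon 2. TPM sum to the same total in every library, so any other gene had less of the total left in a gland-rich library. Genes of at least 1 TPM numbered 8521 to 11703 in the gland-rich libraries and 10411 to 13204 in the sublingual ones. Over the 13712 genes whose mean reached 1 TPM in either gland, the median log2 difference was -0.78 as deposited. After scaling by a trimmed mean of log ratios (TMM) it was -0.06, and after median-of-ratios scaling -0.09.

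**Figure D2:**
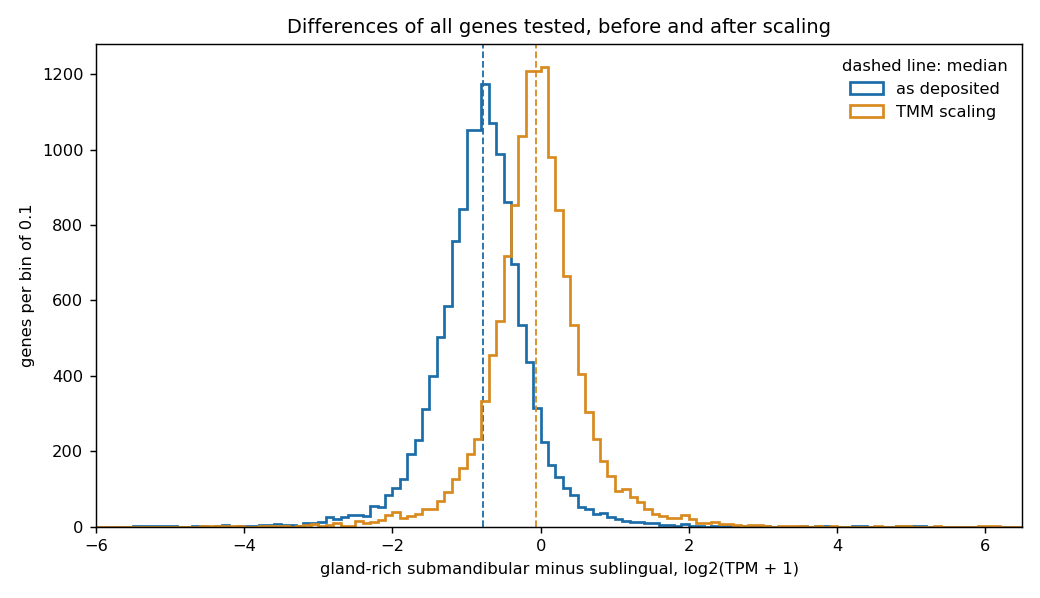
Histogram of the log2(TPM + 1) difference, gland-rich submandibular minus sublingual, over 13712 genes in bins of 0.1, with the deposited values in blue, TMM-scaled values in orange and each median as a dashed line. The median lies at -0.78 as deposited and at -0.06 after scaling. A thin tail of genes, with BPIFA2 and unnamed loci among them, reaches beyond 4 on the submandibular side under both.

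As deposited and on the log2(TPM + 1) scale, 124 genes (0.904%) were at least 2-fold higher in the gland-rich libraries and 4500 (32.8%) at least 2-fold higher in the sublingual ones. Of these, 35 genes (0.255%) on the submandibular side and 784 (5.72%) on the sublingual side had no overlap between the 4 and the 5 libraries. TMM scaling turned that split around, to 134 genes (0.977%) and 26 genes (0.19%), and median-of-ratios scaling gave 120 and 31. The 2-fold counts of all genes were 638 and 802 after TMM scaling and 611 and 842 after median-of-ratios scaling. The shares of 0.904% and 32.8% therefore hold for the deposited values only. All 35 submandibular genes were also at least 2-fold higher and without overlap under both scalings. Only 23 of the 784 sublingual genes met both conditions there, and how many failed on fold alone was not counted. With all 5 submandibular libraries the counts were 9 and 52. Leaving out the sublingual library of baboon 2 raised the sublingual count to 2429, leaving out baboon 4 raised it to 1193, and leaving out baboon 5 raised the submandibular count to 90. These are descriptions, because a measured value chose the submandibular libraries.

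The test that used the labels alone called no gene. It compared all 5 submandibular with all 5 sublingual libraries by limma on log2(TPM + 1), with animal as a block, in a fit of the 15 salivary gland libraries. Of 13712 genes, 0 (0.0% in each direction) passed both a Benjamini-Hochberg adjusted p of 0.05 and a 2-fold difference, and the lowest adjusted p was 0.366. At an unadjusted p under 0.05 there were 63 genes (0.459%) higher in submandibular and 1017 (7.42%) higher in sublingual gland. LOC101011282 had the lowest p, with a log2 difference of 4.15 (SE 0.72, limma adjusted p = 0.366). CA6 differed by 3.02 (SE 0.67, limma adjusted p = 0.497), being higher in the submandibular library of 5 of 5 animals, as the rule that named it required. With all 25 libraries in the fit the test called 10 genes. Pancreas and liver vary less between animals than the salivary glands, so adding them would understate the spread, and they were kept out of the main fit for that reason. Without baboon 2 the test called 18 genes, 4 of them higher in submandibular and 14 in sublingual gland. That leaves the same 4 submandibular libraries that BPIFA2 chose, so these 18 calls are no independent test.

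The 35 submandibular genes without overlap also included genes other than those of secreted proteins. RAB26, a small GTPase of secretory granules, had 21.9, 44.7, 25.6 and 29.8 TPM in the gland-rich libraries against 2.32, 2.48, 7.98, 2.76 and 12.7 TPM in the sublingual ones. TRPV6, an epithelial calcium channel, had 24.7, 22.1, 26.6 and 15.7 TPM against 1.45, 0.74, 2.02, 1.13 and 5.17 TPM. TESC, the calcium-binding protein tescalcin, had 158 to 200.4 TPM against 8.62 to 88.1 TPM. For all 3 genes the highest sublingual library was that of baboon 5 and the groups stayed clear of each other. Their log2 differences were 2.45, 3.04 and 2.31 as deposited and 3.42, 3.96 and 3.36 after TMM scaling.

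CLDN10, a claudin of tight junctions, had 15.4 to 35.0 TPM against 2.52 to 13.1 TPM. ST3GAL1, a sialyltransferase that caps O-glycans, had 10.2 to 20.4 TPM against 1.51 to 7.82 TPM. ADRB1, the beta-1 adrenergic receptor that mediates sympathetic protein secretion, was low in both glands, at 2.22 to 3.48 TPM against 0.12 to 1.04 TPM. The remaining named genes of this set were APLP1, ALDH1L2, CST9, DTNB, DUSP9, ETNPPL, FBLN7, FRMPD1, LIN7A, MYRIP, RASD2, SCAMP5, SHISA2, SLC1A2, SLC25A47, SLC37A2 and VIPR2. In the submandibular library of baboon 2, TRPV6 was at 0.90 TPM, RAB26 at 5.5 TPM and TESC at 26.6 TPM, within the sublingual range for each. Apart from BPIFA2 and the genes that the rule of naming took, these were chosen after their values were seen.

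A second set of salivary secreted proteins ran the other way in baboon 5, and ZG16B among them also in baboons 1 and 3. MUC7, the small mucin of saliva, had 9327, 1967, 3145 and 2790 TPM in the gland-rich libraries, against sublingual values of 2326, 133, 1014, 415 and 44550 TPM for baboons 1 to 5. ZG16B, a lectin of saliva, had 4554, 5558, 3170 and 5363 TPM against 5872, 170, 26570, 2137 and 217252 TPM. PIP, the prolactin-induced protein, had 9673, 7894, 11137 and 6822 TPM against 636, 267, 5296, 1153 and 61330 TPM. For all 3 the sublingual library of baboon 5 was the highest of the 9, that of baboon 2 was at the level of pancreas and liver, and the groups overlapped.

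MUC7 and ZG16B, the other markers of gland content, did not follow BPIFA2 across the sublingual libraries. The log2 difference between the groups was 1.32 for MUC7, -0.53 for ZG16B and 1.93 for PIP, and after TMM scaling it was 2.38, 0.53 and 2.98, so the direction of ZG16B turned with the scaling. The spread behind these means was large: the SD of log2(TPM + 1) over the 5 sublingual libraries was 3.17, 3.87 and 3.08, against 0.97, 0.37 and 0.31 over the 4 gland-rich ones. Within animals, MUC7 was higher in the submandibular library by 2.00, 0.96 and 2.92 in baboons 1, 3 and 4 and lower by a difference of -4.0 in baboon 5. ZG16B gave -0.37, -2.26, 0.57 and -5.34 in baboons 1, 3, 4 and 5.

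Several antimicrobial and binding proteins of saliva were low in the gland-rich libraries and high in some sublingual ones. LYZ, lysozyme, had 73.4 to 133 TPM in the gland-rich libraries and 1341, 19.6, 617, 549 and 17351 TPM in the sublingual ones. BPIFB1, another BPI-fold protein, had 74.9 to 164 TPM against 2194, 15.9, 3203, 137 and 16725 TPM. CRISP3, a cysteine-rich secretory protein, had 5.40 to 17.8 TPM against 1572, 8.25, 45.8, 2103 and 3089 TPM. The sublingual library of baboon 2 lay within or below the gland-rich range for all 3 genes, and that of baboon 4 within it for BPIFB1, while the other sublingual values lay above it.

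DMBT1, the salivary agglutinin, had 2.26 to 3.22 TPM in the gland-rich libraries against 114, 0.71, 36.8, 3.57 and 547 TPM. TCN1, the vitamin B12 carrier haptocorrin, had 0.49 to 3.66 TPM against 3.19, 0.11, 18.9, 5.05 and 792 TPM. SCGB3A2, a secretoglobin, had 0.47 to 9.20 TPM against 2429 TPM in the sublingual library of baboon 5 and no more than 52.0 TPM in the others. Among BPI-fold genes, BPIFB1 lay above the gland-rich range in the sublingual libraries of baboons 1, 3 and 5. BPIFA2 was high on the submandibular side, but it chose the libraries, so no split of the family is read from it. BPIFB2 differed by -1.17 as deposited and -0.25 after TMM scaling, BPIFB3 by -0.90 and -0.66, and BPIFA3 by 0.18 and 0.58.

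Of the 29 serous and salivary secretory genes that passed the filter on low values, from 48 listed, 12 were at least 2-fold higher in gland-rich submandibular and 9 in sublingual gland. The submandibular set was BPIFA2, CA6, PRH2, PRR27, OPRPN, KLK1, PIP, HTN1, PRR4, SCGB2A2, MUC7 and LPO, and the first 5 had no overlap, which for BPIFA2 the choice of libraries fixed. For CA6, PRH2, PRR27 and OPRPN it depends on that choice, since the left-out submandibular library of baboon 2 lay inside the sublingual range. Of all genes, 0.904% were at least 2-fold higher in gland-rich submandibular and 32.8% in sublingual gland, and 0.255% and 5.72% were also without overlap. The 9 on the sublingual side, a share near that of all genes, were LYZ, DMBT1, TCN1, BPIFB1, BPIFB2, CRISP3, SLPI, CST6 and LCN1, and none was free of overlap. The median log2 difference of the list was 0.67 as deposited and 1.72 after TMM scaling, beside -0.78 and -0.06 for all genes. After TMM scaling the 2-fold counts of the list were 16 and 8, beside 638 and 802 of all genes. The summed TPM of the list was 98551 to 160678 in the gland-rich libraries and 23592, 6190, 50302, 17611 and 373472 in the sublingual ones, so that baboon 5 lay above and the other 4 below the submandibular range.

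**Figure D3:**
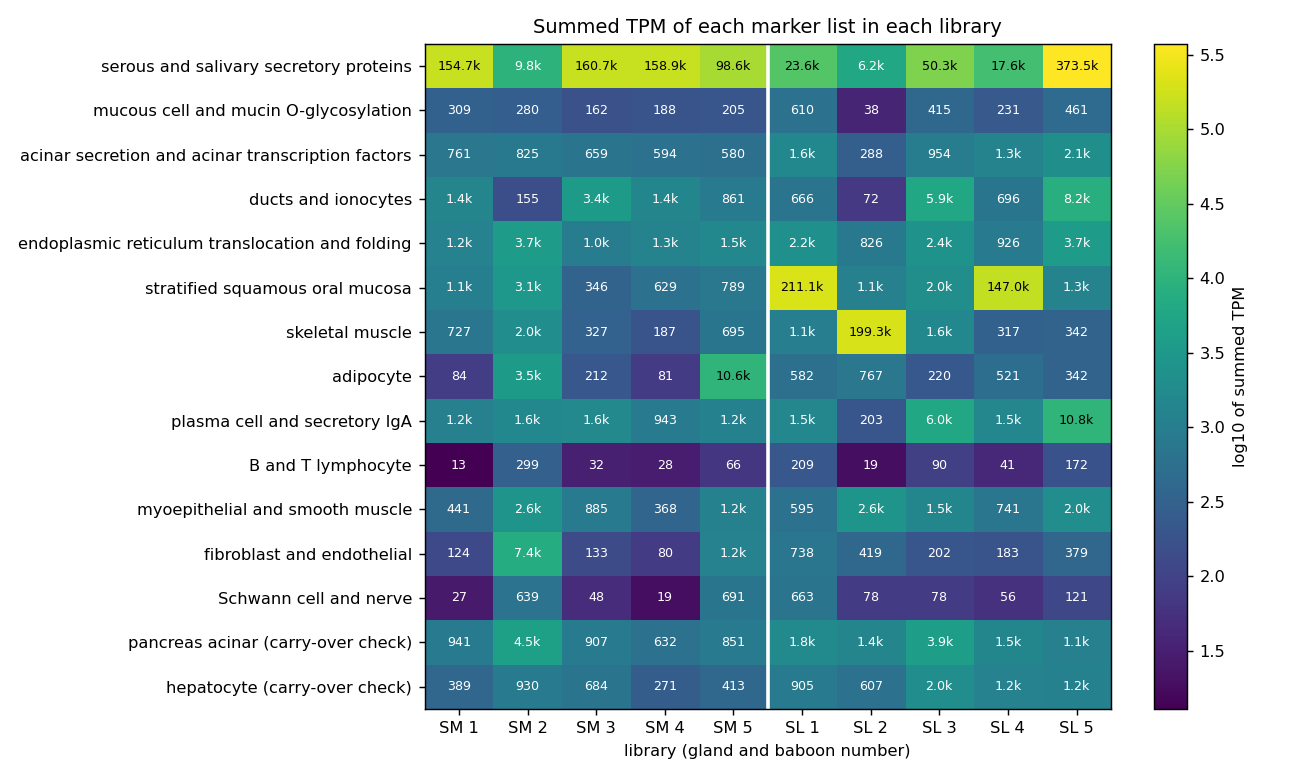
Summed TPM of each of 15 marker lists in the 5 submandibular (SM) and 5 sublingual (SL) libraries, by baboon number, coloured by log10 of the sum, with the sum printed in each cell (k for kilo-TPM). The sublingual libraries differ in kind: squamous mucosa genes stand out in baboons 1 and 4, skeletal muscle genes in baboon 2 and secretory genes in baboon 5.

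The genes that define mucous cells were low in most libraries labelled sublingual. MUC5B, the gel-forming salivary mucin, had 86.7 TPM in the sublingual library of baboon 1 and less than 1 TPM in the other 4, at 0.41, 0.95, 0.14 and 0.05 TPM. The gland-rich submandibular libraries had 0.01 to 0.26 TPM. MUC19, a second gel-forming salivary mucin, had 20.6, 0.85, 0.87, 1.34 and 95.6 TPM in the sublingual libraries and 59.9, 12.8, 27.6 and 24.5 TPM in the gland-rich ones. Only the sublingual library of baboon 5 exceeded the submandibular range for MUC19, and for MUC5B only that of baboon 1 was well above it. A defining mucous marker was thus near 0 in 4 of the 5 libraries labelled sublingual, and they are called by their label here.

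Among the other mucous genes, TFF3, a trefoil peptide, had 33.4, 0.50, 71.0, 1.10 and 5.22 TPM in the sublingual libraries, against 0.17 to 1.34 TPM in the gland-rich ones. FCGBP, a mucus-associated protein, had 33.7, 19.96 and 23.4 TPM in baboons 1, 3 and 5 and 0.28 and 0.51 TPM in baboons 2 and 4. SPDEF, a transcription factor of mucous cells, was at 22.1 to 31.0 TPM in the gland-rich libraries and 21.8, 1.06, 11.2, 3.75 and 72.7 TPM in the sublingual ones. The sialyltransferase ST6GALNAC1 was at 21.5 to 60.7 TPM against 43.5, 0.84, 3.82, 6.43 and 48.2 TPM. Of the 24 mucous and O-glycosylation genes that passed the filter, from 40 listed, 5 were at least 2-fold higher in submandibular (MUC19, ST3GAL1, ST6GALNAC1, SPDEF and ST6GALNAC2) and 9 in sublingual gland, against 0.904% and 32.8% of all genes. The list's median of -0.78 equalled that of all genes as deposited, and it was 0.02 after TMM scaling. After that scaling the 2-fold counts were 8 and 6, beside 638 and 802 of all genes.

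Among acinar secretion genes, BHLHA15 (MIST1), the transcription factor of mature serous secretory cells, had 55.8, 26.1, 54.8 and 25.6 TPM in the gland-rich libraries. The sublingual libraries had 7.08, 1.23, 6.75, 2.45 and 38.5 TPM, so that of baboon 5 fell within the submandibular range. AQP5, the apical water channel, had 54.7 to 88.3 TPM against 40.5, 2.61, 68.9, 3.78 and 226 TPM. SOX10, a transcription factor of secretory and myoepithelial cells, had 15.5 to 31.2 TPM against 7.38, 1.24, 15.2, 1.58 and 56.8 TPM. Each of these 3 genes was highest in the sublingual library of baboon 5 among the sublingual libraries, with those of baboons 2 and 4 lowest. The acinar list held 31 genes past the filter, of which 6 were at least 2-fold higher in submandibular and 5 in sublingual gland (0.904% and 32.8% of all genes), with medians of 0.09 as deposited and 1.01 after TMM scaling. After TMM scaling the 2-fold counts were 16 and 1, beside 638 and 802 of all genes. ELF3, an epithelial transcription factor, was on the sublingual side at 124, 1.23, 32.5, 518 and 36.7 TPM against 6.95 to 9.29 TPM.

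Duct genes also differed between the sublingual libraries. KLK1, tissue kallikrein of the striated ducts, had 1028, 2792, 1020 and 535 TPM in the gland-rich libraries and 42.8, 35.6, 3040, 46.6 and 322 TPM in the sublingual ones. FXYD2, a subunit that regulates the sodium pump, had 351 to 2620 TPM against 19.2, 8.26, 3699, 40.7 and 414 TPM. ASCL3, an ionocyte transcription factor, had 4.10 to 8.41 TPM against 39.9 TPM in the sublingual library of baboon 3, 4.29 TPM in that of baboon 5 and at most 0.25 TPM in the others. The sublingual library of baboon 3 was the highest of the 9 for all 3 genes. In baboon 3 the within-animal difference of KLK1 was -0.12, where baboons 1 and 4 gave 4.56 and 4.42. Liver had 31.5 to 63.1 TPM of KLK1, a range that holds the sublingual values of baboons 1, 2 and 4, and pancreas had 1614 to 2136 TPM. The differences of baboons 1 and 4 thus measure no sublingual level above that of liver. Other duct genes did not share this order: of the 5 that were at least 2-fold higher in sublingual gland, 3 were highest in baboon 1 and 1 each in baboons 3 and 4. The list summed to 861 to 3421.5 TPM in the gland-rich libraries and to 666, 72.3, 5931, 696 and 8205 TPM in the sublingual ones. Of 21 duct genes past the filter, 5 were at least 2-fold higher on each side, against 0.904% (submandibular) and 32.8% (sublingual) of all genes, and none was both 2-fold higher and free of overlap. After TMM scaling the 2-fold counts were 8 and 2, beside 638 and 802 of all genes.

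Genes of protein translocation and folding in the endoplasmic reticulum overlapped between the groups without exception among the 38 that passed the filter. None was at least 2-fold higher in submandibular gland and 5 were in sublingual gland, against 0.904% and 32.8% of all genes, the median being -0.43 as deposited and 0.51 after TMM scaling. After TMM scaling the 2-fold counts turned around, to 7 in submandibular and 0 in sublingual gland, beside 638 and 802 of all genes. SEC61B, of the translocation channel, had 141 to 222 TPM in the gland-rich libraries and 165, 38.4, 124, 52.5 and 534 TPM in the sublingual ones. SSR4, of the translocon-associated complex, had 85.7 to 123 TPM against 163, 103, 288, 57.5 and 567 TPM. Both were highest in the sublingual library of baboon 5 and overlapped between the groups.

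The sublingual libraries of baboons 1 and 4 were rich in genes of the stratified squamous mucosa that lines the mouth. KRT13, a keratin of non-keratinised oral epithelium, had sublingual values of 50365, 228, 72.4, 12518 and 36.4 TPM for baboons 1 to 5. SPRR3, of the cornified envelope, had 32569, 149, 121, 29203 and 85.8 TPM. S100A9, a calprotectin subunit that mucosal epithelium and neutrophils both express, had 31556, 146, 404, 44192 and 130 TPM. In the gland-rich libraries KRT13 had 0.17 to 166 TPM, SPRR3 0.22 to 140 TPM and S100A9 1.64 to 122 TPM. The 3 other sublingual libraries were thus far closer to the submandibular range than to baboons 1 and 4.

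The squamous list of 55 genes, of which 49 passed the filter, summed to 211070 TPM in sublingual library 1 and 146974 TPM in sublingual library 4, to 1111 to 2048 TPM in the other 3 and to 346 to 1076 TPM in the gland-rich libraries. None of the markers was at 0 in all 10 libraries. Of the 49, 46 were at least 2-fold higher in the sublingual group (32.8% of all genes), with a list median of -2.58 as deposited and -1.93 after TMM scaling, but only 5 were free of overlap, against 5.72% of all genes. The 46 were highest in baboon 1 for 36 genes and in baboon 4 for 10. Those without overlap included S100A8, S100A9, SCEL and TP63. After TMM scaling no gene of the list was both at least 2-fold higher and free of overlap. Pancreas and liver libraries reached 260 TPM for S100A9, above its sublingual values in baboons 2 and 5, so its lack of overlap rests partly on background levels. The part of mucosa in the other sublingual-side differences was not tested.

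PITX1, of the squamous list, and GABRP, both picked after their values were seen, were also highest in the sublingual libraries of baboons 1 and 4. PITX1, a homeobox factor of oral epithelium, had sublingual values of 710, 28.4, 49.9, 271 and 75.3 TPM and 30.9 to 45.8 TPM in the gland-rich libraries. GABRP, the pi subunit of the GABA-A receptor, had 268, 1.64, 14.5, 509 and 31.3 TPM against 0.67 to 1.57 TPM. Its 5 sublingual values all lay above the 4 gland-rich ones, with baboon 2 only just above.

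The sublingual library of baboon 2 carried genes of striated muscle and few secretory genes. SLN, sarcolipin, had 19979 TPM there and at most 95.6 TPM in the remaining sublingual libraries. MYL2, a slow-muscle myosin light chain, had 9952 TPM there and at most 46.0 TPM in the other sublingual libraries. MB, myoglobin, had 33743 TPM there, at most 168 TPM in the other sublingual libraries and 102 to 314 TPM in the gland-rich ones. The skeletal muscle list summed to 199270 TPM in this library, to 317 to 1559 TPM in the other sublingual libraries and to 187 to 727 TPM in the gland-rich ones. All 37 muscle genes that were at least 2-fold higher in the sublingual group, of 39 past the filter, were highest in this library, and only TNNC1 was free of overlap. Of all genes 32.8% were at least 2-fold higher in sublingual gland and 5.72% also free of overlap. With this library left out of the unblocked limma test of the labelled groups, 20 genes were called, all higher in sublingual gland, among them CRISP3, CST6, GABRP and KRT15. The same unblocked test called 0 genes with no library left out and 0 with any other single sublingual library left out. Those 20 calls thus depend on leaving out 1 library in a fit without the animal block, and they are no independent support.

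Single libraries carried a measurable share of the sublingual side. Of the 4500 genes at least 2-fold higher in sublingual gland, 327 (7.27%) had at least 80% of their summed sublingual TPM in 1 library. That library was baboon 2 for 198 genes, baboon 1 for 84, baboon 3 for 29, baboon 4 for 9 and baboon 5 for 7. Without it, 271 of the 327 (82.9%) were no longer 2-fold higher. Among the 444 genes at least 4-fold higher, 89 (20.05%) were of this kind. At a share of at least 50% the count was 1322, and at 90% it was 209. All these counts and shares hold for the deposited values only. After TMM scaling 802 genes were at least 2-fold higher in sublingual gland, and single-library drivers were not counted among them.

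**Figure D4:**
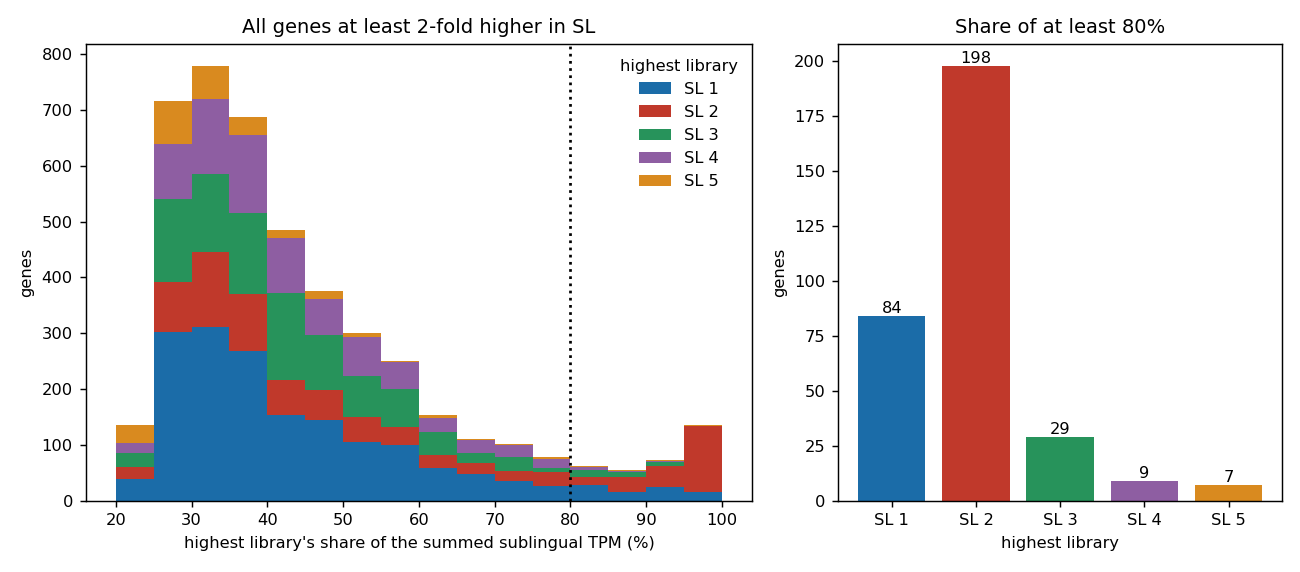
Left, histogram of the share of summed sublingual TPM held by the highest library, in percent, for the 4500 genes at least 2-fold higher in sublingual gland, stacked by which library that was, with the 80% limit dotted. Right, the number of genes past 80% by library. The library of baboon 2 holds 198 of the 327 and fills the highest bin almost alone.

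The genes with the widest gap between 1 sublingual library and the next showed what set each library apart. In baboon 2 these were STRIT1, HSPB7, MYH2, MYL2 and TNNT1, all of muscle, with 870 to 9952 TPM against next values of 2.21 to 46.0 TPM. In baboon 1 they were RPS25, LORICRIN, LYPD3, GJB2 and DMKN, where LORICRIN, of the cornified envelope, had 863 TPM against a next value of 10.3 TPM. RPS25, a ribosomal protein gene, had 467 TPM in the sublingual library and 121 TPM in the submandibular one of baboon 1 and at most 7.21 TPM in the other 8 libraries of the glands. In baboon 4 they were UPK1B, INPPL1, HILPDA, CAPN12 and NT5C3A, with 116 to 758 TPM and gaps of 2.27 to 4.29 on the log2 scale.

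In baboon 3 the set was LACRT, RPL10L, INS, KLK1 and FXYD2. LACRT, lacritin, a glycoprotein of tears and saliva, had 109 TPM against 2.03 TPM in the next sublingual library and 5.94 to 18.5 TPM in the gland-rich ones. INS, insulin, had 501 TPM there and 15.9 to 51.0 TPM in the other sublingual libraries, against 11.9 to 29.7 TPM in the gland-rich ones. The pancreas acinar list summed to 3910 TPM in this library, to 1124 to 1783 TPM in the other sublingual libraries and to 632 to 941 TPM in the gland-rich ones. Its members CLPS, SPINK1 and CELA3B and the hepatocyte gene SERPINA1 were higher in all 5 sublingual libraries than in the 4 gland-rich ones as deposited. Under TMM scaling none of these 4 was both at least 2-fold higher and free of overlap. HMGA2, a chromatin protein, had 16710 TPM in the sublingual library of baboon 3, 334 to 4805 TPM in the other 4 and 75.6 to 484 TPM in the gland-rich libraries. Pancreas and liver had 277 to 5821 TPM of HMGA2, so the other 4 sublingual values lay inside that range. HMGA2 was chosen after its values were seen.

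In baboon 5 the set was SCGB3A2, TCN1, RPS4Y1, MUC7 and LYZ. RPS4Y1, which lies on the Y chromosome, had 228 TPM in the sublingual library and 199 TPM in the submandibular one of baboon 5 and 0.30 to 6.61 TPM in the 8 libraries of the animals labelled female. The other 4 are secreted proteins. JCHAIN, the joining chain of secretory antibodies, was also highest there, at 8720 TPM, with 634, 20.3, 1725 and 93.9 TPM in the other sublingual libraries and 718 to 1100 TPM in the gland-rich ones. The plasma cell list summed to 10818 TPM in baboon 5 and 5982 TPM in baboon 3, to 203 to 1485 TPM in the other sublingual libraries and to 943 to 1646 TPM in the gland-rich ones.

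The gland-rich libraries were more like each other than the sublingual ones were. Across genes, the correlation of log2(TPM + 1) between libraries had a median of 0.914 over 6 gland-rich pairs (0.884 to 0.971) and 0.741 over 10 sublingual pairs (0.630 to 0.885). These describe libraries, since genes are not replicates. The sublingual library of baboon 5 correlated with the 4 gland-rich libraries at a median of 0.920, that of baboon 3 at 0.833, and those of baboons 1, 4 and 2 at 0.795, 0.757 and 0.733. The sublingual library of baboon 5 was thus as close to the gland-rich libraries as these were to each other by this measure.

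**Figure D5:**
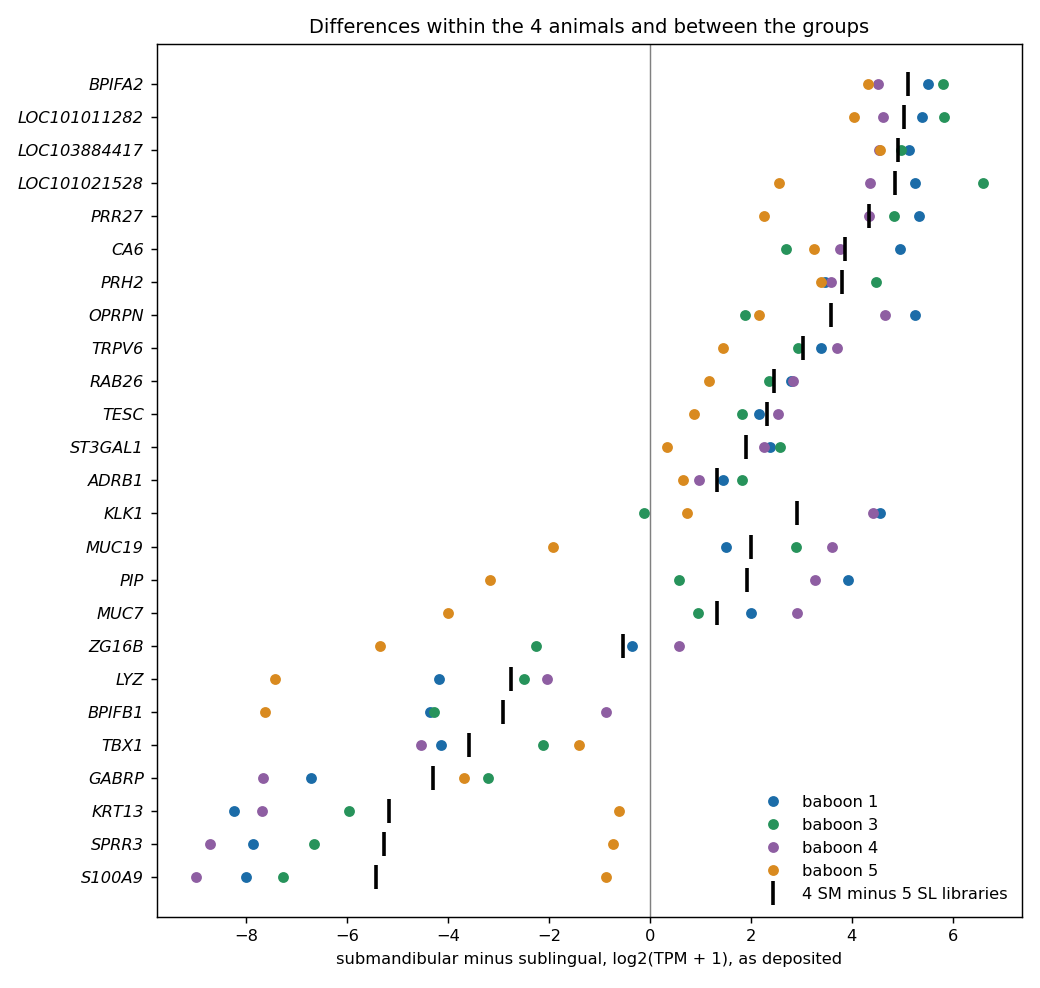
Submandibular minus sublingual difference in log2(TPM + 1), as deposited, for 25 genes in the 4 animals with both glands (coloured points), with the difference between the 4 submandibular and 5 sublingual libraries as a black bar. BPIFA2, CA6, PRH2 and the 3 unnamed loci shown lie above 0 in 4 of 4 animals, MUC7, PIP and MUC19 change sign in baboon 5, and KRT13, SPRR3 and S100A9 lie close to 0 in baboon 5. For BPIFA2 the choice of libraries fixed the 4 of 4.

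The sublingual genes that the naming rule took were higher in sublingual gland in every animal, which the rule itself required. TBX1, a T-box factor of the pharyngeal region and its muscles, had 22.7, 93.9, 4.90, 28.4 and 10.3 TPM in the sublingual libraries and 0.35, 0.35, 0.27 and 3.28 TPM in the gland-rich ones. CNKSR1, a scaffold of Ras signalling, had 34.5, 7.78, 14.2, 40.9 and 13.6 TPM against 2.33 to 5.43 TPM. P2RY2, a receptor for extracellular nucleotides, had 29.8, 23.1, 1.19, 14.2 and 2.58 TPM against 0.32 to 0.80 TPM. The groups did not overlap for TBX1, CNKSR1 or P2RY2. That the submandibular library was lower in 5 of 5 animals for each was a condition of their choice and no result. The limma log2 difference over the 5 labelled animals was -3.03 (SE 0.71, adjusted p = 0.497) for TBX1 and -2.36 (SE 0.46, adjusted p = 0.404) for CNKSR1, neither of which was called. ANKRD9, GPT, HRC, PDLIM5, TRAK1 and THBS4 were of the same kind, with limma log2 differences of -2.87 to -1.80. Among the sublingual libraries, TBX1, ANKRD9, HRC, PDLIM5, TRAK1 and THBS4 were highest in the muscle-rich one of baboon 2.

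As deposited and under both scalings, 23 genes were at least 2-fold higher in sublingual gland and without overlap. Their widest log2 differences as deposited were -3.59 for TBX1, -2.90 for HRC, -2.63 for PRDX1 and -2.46 for STMP1. PRDX1, a peroxiredoxin that removes peroxides, had 45.3 to 108 TPM in the gland-rich libraries against 189 to 1148 TPM. ALAS1, the first enzyme of haem synthesis, had 1.73 to 5.02 TPM against 11.6 to 23.5 TPM, a narrow sublingual range. After TMM scaling PRDX1 differed by -1.58 and ALAS1 by -1.25. The submandibular library of baboon 2, at 497 and 14.7 TPM, lay within the sublingual range for both. These genes were chosen after their values were seen.

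Markers of fat, stroma and blood cells varied between libraries of the same gland. The adipocyte list summed to 10640 TPM in the gland-rich submandibular library of baboon 5, where FABP4, a fatty-acid carrier, had 5704 TPM, against 81.3 to 212 TPM in the other gland-rich libraries and 220 to 767 TPM in the sublingual ones. The fibroblast and endothelial list summed to 1221 TPM in that library, to 79.6 to 133 TPM in the other gland-rich ones and to 183 to 738 TPM in the sublingual ones. The lymphocyte list summed to 12.9 to 65.9 TPM against 18.5 to 209 TPM. The 13 mitochondrially encoded protein genes took 30.4%, 22.1% and 23.5% of TPM in sublingual libraries 2, 3 and 4, 5.90% and 5.45% in those of baboons 1 and 5 and 2.23% to 8.70% in the gland-rich libraries. The part of each of these in the differences above was not tested.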

How the data were processed

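The deposited values were TPM per gene, from kallisto per the submitters' processing notes, whose version, index, genome build and annotation are not given in the sources used here. Per the labels' protocols, total RNA was treated with DNase and read as paired ends on an Illumina HiSeq. TPM keep no depth, so the read number is unknown and precision rests on the spread between animals. All 21287 identifiers matched the RefSeq gene table of Panubis1.0, used for names and neighbours only, and 4555 were LOC numbers. Each column was matched to its library through the library name in the labels.

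Values were taken as log2(TPM + 1), which understates the change of low genes, for the 13712 genes whose mean reached 1 TPM in submandibular or sublingual gland. The 5 labelled animals were tested with limma 3.58.1 in R 4.3.3 (trended empirical Bayes, tissue and animal as terms, 15 parotid, submandibular and sublingual libraries, Benjamini-Hochberg adjustment), and genes were called where the adjusted p was below 0.05 and the groups differed by at least 1 on the log2 scale. The script was tested on simulated data. Libraries of the same animal pair by the labels, and the deviations from the gland means of 5 same-animal pairs correlated at 0.147 on average (0.031 to 0.293), against -0.033 between animals. The contrast of 4 gland-rich against 5 sublingual libraries was described without a test, since BPIFA2 chose the libraries, and limma fits on those libraries were run only as alternatives whose calls support nothing. Scaling factors came from an unweighted trimmed mean of log ratios (TMM) and from medians of ratios, computed over the 15 salivary libraries in Python 3.11.15 with pandas 2.3.3 and numpy 2.4.6. Figures used matplotlib 3.10.9.

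Named were BPIFA2, MUC7 and ZG16B, up to 10 genes in each direction by call or, as none was called, by moderated t with at least 10 TPM and 1 direction in 5 animals, the 4 highest members of each of 15 marker lists, and for each sublingual library the 5 genes of at least 100 TPM with the widest log2 gap to the next. Other genes were chosen after their values were seen, and all libraries and lists with earlier results of these data known. Alternatives were the replicate block, the libraries fitted, scaling, filter, pseudocount, fold minimum, share limit and each library left out. Parotid values entered the fit only. Some genes are not reported here.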

Additional observations from a re-analysis of the deposited data

Results flagged for a closer look

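Each value below was the highest or lowest of its 5 libraries of a gland and stood apart by most of that gland's range. Of 230 gene and gland groups checked, 37 had such a library. Chance gives about 1 in 20 for genes picked without regard to their spread, but BPIFA2 and the genes named for a wide gap were picked by it, so the number is not set against chance. The submandibular library of baboon 2, which the BPIFA2 minimum left out, was the lowest for 14 genes and the highest for 6.

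Secreted and acinar genes were lowest there. BPIFA2 was at 1044 TPM (28937 to 46591 TPM in the other 4), ZG16B at 549 TPM (3170 to 5558 TPM), CA6 at 231 TPM, PRH2 at 6692 TPM, PIP at 308 TPM, TESC at 26.6 TPM and TRPV6 at 0.90 TPM. LOC103884417 was at 8395 TPM, LOC101011282 at 3596 TPM, LOC101021528 at 1662 TPM and LOC103881672 at 12378 TPM. ST6GALNAC1 was at 0.83 TPM (21.5 to 60.7 TPM in the other 4), ELF3 at 2.49 TPM and the water and glycerol channel AQP3 at 5.11 TPM (28.0 to 45.6 TPM). The genes highest in that library were HMGA1 at 971 TPM (13.3 to 31.7 TPM in the other 4), CLPS at 1809 TPM, SPINK1 at 463 TPM, RPL10L at 126 TPM, PDLIM5 at 19.0 TPM and TRAK1 at 8.73 TPM.

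In the sublingual library of baboon 2 the muscle genes TPM2, TNNT1, HSPB7 and STRIT1 were highest at 12666, 5915, 1088 and 870 TPM, beside GPD1 at 278 TPM and THBS4 at 51.6 TPM. In that of baboon 3, CLPS was at 1631 TPM, SPINK1 at 341 TPM, ALB at 572 TPM, RPL10L at 140 TPM and LACRT at 109 TPM. RPL10L was thus highest in the submandibular library of one animal and the sublingual library of another, at 2.15 to 8.21 TPM in the other 8. Single genes stood out in the sublingual libraries of baboon 1 (RPS25, 467 TPM), baboon 4 (INPPL1, 116 TPM) and baboon 5 (OPRPN, 11.1 TPM).

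In the gland-rich libraries, VAMP8, a SNARE protein of granule release, was highest in baboon 3 at 187 TPM (114 to 118 TPM in the other 4), and SPRR3 was lowest there at 0.22 TPM (51.1 to 226 TPM). RPS4Y1 was highest in baboon 5, the animal labelled male, at 199 TPM.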

How the results depend on the processing

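The label test called 0 genes as set out, with 1080 at an unadjusted p under 0.05, and also 0 without the replicate block (749 at an unadjusted p under 0.05), with only the 10 libraries of both glands, with either scaling, without the filter, with a minimum of 5 TPM, with a pseudocount of 0.1 and with no minimum fold. It called 10 with all 25 libraries in the fit, 3 higher in submandibular gland (BPIFA2, LOC101011282 and LOC103884417) and 7 in sublingual gland (AREG, SUSD4, CNKSR1, LOC101025146, P2RY2, ANKRD9 and GPT). That fit holds pancreas and liver, which would understate the spread of the glands. With the 4 gland-rich libraries, chosen by BPIFA2, the test called 2 without the replicate block, both higher in submandibular gland, and 0 with it. The 2 calls are circular and support nothing. Leaving out 1 animal gave 0 to 18 calls (0 to 4 submandibular and 0 to 14 sublingual), and leaving out 1 sublingual library 0 to 20, all sublingual. The calls came each time from leaving out baboon 2. Where both its glands were left out, the 4 submandibular libraries that remained were the gland-rich ones, with the same limit. The cause was not tested.

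In the description of 4 against 5 libraries, genes at least 2-fold apart and without overlap were 35 and 784 as deposited. They were 134 and 26 with TMM, 120 and 31 with median-of-ratios scaling, and 9 and 52 with all 5 submandibular libraries. Leaving out 1 sublingual library gave 35 to 90 and 759 to 2429. VAMP8 turned from -1.01 to 0.047 with TMM and 0.015 with median-of-ratios scaling, CPA1 from -1.01 to 0.041 and 0.0080, and APOA2 from -1.03 to 0.022 with TMM. Of the values of single genes in this description, 987 moved by less than the spread between libraries, 43 by more, and 5 that were at least 2-fold changed sign (those above), besides 57 that were under 2-fold, such as ZG16B. Genes with at least 80% of the sublingual sum in 1 library numbered 327, against 1322 at 50%, 209 at 90% and 89 at a 4-fold minimum. Read depth is unknown, so values under about 1 TPM carry an error that cannot be stated. The sections' content differs between libraries, and no library was replicated within an animal.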

Other observations

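The squamous genes were present at low levels in 4 of the 5 submandibular libraries. KRT13 had 166, 317, 0.17, 59.5 and 23.5 TPM in the submandibular libraries of baboons 1 to 5, and SPRR3 had 140, 226, 0.22, 68.3 and 51.1 TPM, so baboon 3 was near 0 for both. Pancreas and liver libraries reached 282 TPM for KRT13 and 273 TPM for SPRR3. Muscle genes differed in the same way between the submandibular libraries, SLN being at 35.9, 115, 0.00, 0.00 and 32.2 TPM and MYL2 at 21.0, 65.6, 0.11, 0.00 and 20.6 TPM.

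The submandibular library of baboon 2 held stromal genes. DCN, decorin, had 3658 TPM there against 41.4 to 575 TPM in the gland-rich libraries, and COL1A1 had 452 TPM against 2.13 to 49.5 TPM. Its fibroblast and endothelial list summed to 7361 TPM and its lymphocyte list to 299 TPM, the highest sums of the 10 libraries for both.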
